A study of Mus musculus with 22 samples.

Results

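Aging of long-term hematopoietic stem cells (LT-HSCs) that lack the aryl hydrocarbon receptor (AHR) was examined by comparing sorted cells from 18-month-old AHRVav1 mice with those from 2-month-old AHRVav1 mice. The comparison used every array whose label gave the Ahr knockout genotype, 6 at 18 months and 5 at 2 months, which made 11 of the 22 arrays in the series. All 11 animals were C57BL/6J mice with floxed Ahr alleles and a Vav1-Cre transgene, which is active in the blood-forming system, so both ages carried the same deletion in blood cells and the receptor was left in place in the cells of the marrow niche. The other 11 arrays (6 at 18 months and 5 at 2 months) came from AHRFX mice, which carry the floxed Ahr alleles without the excision. The study's text gives its AHRVav1 and AHRFX animals as female, and Xist, the RNA that silences one X chromosome in females, was above background in all 11 AHRVav1 arrays. Lineage-depleted marrow was labelled with antibodies against CD150, CD48, CD34, cKit and Sca-1, and cells of the SLAM gate (CD48-negative and CD150-positive, with CD34-negative added in the study's text) were collected from 1 animal per array. Their RNA was amplified with a kit for picogram inputs and hybridized to whole-transcript mouse gene arrays.

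LT-HSCs divide rarely and can rebuild all blood lineages. With age in mice they are known to grow in number, to lose regenerative capacity per cell and to favor myeloid and platelet output over lymphoid output. AHR is a ligand-activated transcription factor that pairs with ARNT on DNA, is best known for inducing Cyp1a1, Cyp1b1, Tiparp, Nqo1 and its own repressor Ahrr, and has been linked to the restraint of HSC proliferation.

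Each value was a linear probe set intensity (signal), and differences were 18 minus 2 months on the log2(signal + 16) scale. A probe set was called above background in an array when its signal exceeded the 95th percentile of 1396 probe sets for olfactory and vomeronasal receptors (Olfr, Vmn1r, Vmn2r), which marrow cells do not use. By that rule the ages differed before any single gene was considered. At 18 months 57.8% ± 1.72 (SD, n = 6) of the probe sets other than these receptors were above background, against 29.3% ± 2.52 (SD, n = 5) at 2 months. The background itself was 29 ± 1.67 (range 26.7 to 30.6) at 18 months and 78.8 ± 10.8 (range 68.8 to 95.7) at 2 months. An array correlated with the other arrays of its age at a mean of 0.967 at 18 months and 0.725 at 2 months. None of these 3 measures overlapped between ages, with an exact two-sided permutation p of 0.00216 each, the smallest that 6 against 5 arrays can give. AHRFX arrays split by age too, with 54.94% to 61.55% of the same probe sets above background at 18 months and 27.97% to 35.91% at 2 months. Age and the technical quality of the arrays thus cannot be told apart in this design, with array dates not given in the sources used here.

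**Figure D1:**
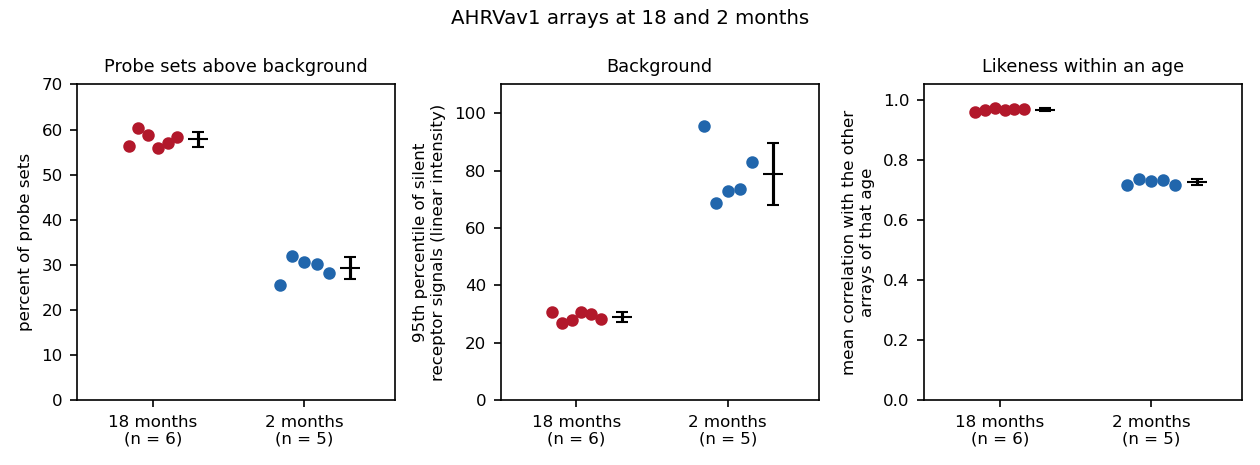
Percent of probe sets, olfactory and vomeronasal receptors left out, above background (left), background intensity (middle) and mean correlation with the other arrays of the same age (right) in AHRVav1 LT-HSCs at 18 months (red, n = 6) and 2 months (blue, n = 5). Each point is 1 array and bars give the mean ± SD; the percent above background spans 56 to 60.5 for the 18-month arrays, against 25.5 to 31.9 for those at 2 months.

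A pair of 18-month arrays, replicates 1 and 2, stood apart from the other 4. The mean level of 18 erythroid genes, as a log2 deviation from the mean of the 11 arrays, was 2.27 and 2.25 in replicates 1 and 2 and 0.24, 0.04, -0.38 and -0.45 in replicates 3 to 6, against -0.41, -0.97, -0.88, -0.69 and -1.03 in the 5 arrays at 2 months. Myeloid priming genes ran the other way, at -0.29 and -0.07 in replicates 1 and 2 and 1.07 to 1.38 in replicates 3 to 6, against -1.07 to -0.6 at 2 months. Calls of genes described below that ended without replicates 1 and 2 are given with both values.

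Across the 26688 probe sets, 6072 (22.8%) were higher and 6979 (26.2%) lower at 18 months at an adjusted p under 0.05 (limma, Benjamini-Hochberg). The receptor probe sets that define background were themselves called at a high rate: of 1396, 615 (44.1%) were lower and 11 (0.788%) higher, with a median difference of -0.28, where the median over all probe sets was -0.09. Signals of the 5 arrays at 2 months and the 6 at 18 months did not overlap for 3484 probe sets that were higher (13.1%) and 4095 that were lower (15.3%). When every signal under the highest background of the 11 arrays (95.7) was raised to it, a setting chosen after seeing the data, 1538 (5.76%) stayed higher and 765 (2.87%) lower.

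The 3121 probe sets above background in all 11 arrays were detected at both ages. Among them 578 (18.5%) were higher and 1014 (32.5%) lower, and the groups did not overlap for 352 of the higher and 861 of the lower ones. This filter favors lower calls, because its threshold was 68.8 to 95.7 at 2 months and 26.7 to 30.6 at 18 months. With background at the 99th percentile the counts were 326 higher and 285 lower. A further 2246 probe sets were above background in all 6 arrays at 18 months and in none at 2 months, of which 2030 (90.4%) were called higher. The reverse pattern, above background in all 5 arrays at 2 months and in none at 18 months, was met by 15 probe sets, and 15 (100%) of them were called lower. These last shares follow from how the probe sets were picked and were not tested. Gene lists are described with 1 probe set for each of 22025 genes, of which 5167 (23.5%) were higher and 5852 (26.6%) lower. By the same filter, 2368 of these genes were above background in all 11 arrays, of which 413 (17.4%) were higher and 798 (33.7%) lower. Of 9942 genes above background in all 6 AHRFX arrays at 18 months, 4072 (41%) were higher and 1195 (12%) lower in AHRVav1 cells. Their median difference was 0.82, against -0.08 over all genes. Those AHRFX arrays did not enter the comparison, but they share its older age and the low background of that age. Picking genes by detection at 18 months thus favors higher calls in itself. That 41% is the background against which lists of expressed genes are read below.

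Ahr had a signal of 18.1, 26.5 and 38.1 (lowest, median and highest) at 18 months, against 5.8, 10.1, 2.6, 6 and 4.1 at 2 months. The ages did not overlap, yet Ahr was above background in only 2 of 6 arrays at 18 months and in 0 of 5 at 2 months. Its difference of 1.01 ± 0.14 (SE, adjusted p = 0.0002, exact permutation p = 0.00216) therefore lay near the floor, and it was 0.00 once signals were raised to the highest background. Whether the probes of this probe set lie in the floxed exon is unknown here, so its level does not check the deletion. Arnt, the DNA-binding partner of AHR, was above background in all 6 arrays at 18 months (lowest 153, median 159, highest 189) and in none at 2 months (38.1, 33.8, 10.4, 15 and 21.4), which set the fold at 2.12 or more (adjusted p = 3.35e-05).

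The cytochrome targets of AHR stayed close to background at both ages. Cyp1a1 was above background in 0 of 11 arrays, and Cyp1b1 in 2 of 6 at 18 months and 0 of 5 at 2 months, and neither was called (adjusted p = 0.0648 and 0.223). Ahrr, the repressor of AHR, and Scin, an AHR target in hematopoietic cells, were called lower (-0.60 ± 0.16 and -0.91 ± 0.24, SE) but were above background in 3 and 1 of the 6 arrays at 18 months and in no 2-month array. Tiparp and Nqo1 were called higher (1.37 ± 0.23 and 1.51 ± 0.25, SE), and were above background in 6 and 5 of the 6 arrays at 18 months, against none at 2 months. A second Tiparp probe set was not called (0.39, adjusted p = 0.377). No signal of these 4 genes reached the highest background of the 11 arrays. Of the 20 members measured in the list of AHR pathway and target genes, 9 (45%) were higher and 4 (20%) lower. The list's median was 0.65, against -0.08 over all genes. Only 9 of the 20 were above background in all 6 arrays at 18 months, so the 0.82 of expressed genes does not match this list. Hsp90aa1, the chaperone that holds unliganded AHR in the cytoplasm, was the member above background in all 11 arrays with the smallest p (0.92 ± 0.15, SE, adjusted p = 0.000524).

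Among genes above background in all 11 arrays, the one that rose most was an immunoglobulin segment. Igkv4-70, a kappa light chain variable gene, had signals of 3784, 16678 and 38558 (lowest, median and highest) at 18 months, against 221, 207, 102, 81.2 and 128 at 2 months. The ages were far apart (6.60 ± 0.54, SE, adjusted p = 6.16e-06), and AHRFX cells showed a difference of 6.66. Replicates 1 and 6 at 18 months shared the value 38558, and replicates 2 and 3 the value 16678, because quantile normalization gives equal ranks one value, so at the top of an array the size of this difference follows from rank. Ighm, the heavy chain constant gene of IgM, had signals of 136, 571 and 2001 at 18 months, against 8.9, 9.8, 11.2, 9.4 and 9.6 at 2 months, at least 7.04-fold higher. Of the 5 Ighm probe sets, 3 were higher (1.95 to 4.86) and 2 were not called. Markers of B and plasma cells went both ways. Of 20 measured, 5 (25%) were higher and 4 (20%) lower with a median of -0.02. The plasma cell genes Mzb1 and Sdc1 were higher (1.23 ± 0.23 and 1.70 ± 0.33, SE, adjusted p = 0.00108 and 0.00146), with 5 and 4 of 6 arrays above background at 18 months and none at 2 months, and Prdm1, the regulator of plasma cell fate, was lower (-0.90 ± 0.23, SE, adjusted p = 0.00665). The summed signal of those 20 markers, Ighm included, was 2410 to 8312 at 18 months, against 517 to 1740 at 2 months. In that sum the brightest Ighm probe set gave 1624 to 6502 at 18 months and 58.6 to 323 at 2 months. The part of these markers in the immunoglobulin result was not tested.

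The other 9 genes of the 10, ranked among genes whose ages did not overlap, were of varied function. P4hb, a protein disulfide isomerase of the endoplasmic reticulum, had signals of 795, 1060 and 1437 at 18 months, against 331, 222, 174, 122 and 234 at 2 months (2.25 ± 0.27, SE, adjusted p = 6.8e-05). Pf4, the platelet chemokine that LT-HSCs biased to platelets also transcribe, had signals of 689, 1303 and 1680 at 18 months, against 263, 220, 326, 511 and 236 at 2 months (1.92 ± 0.30, SE, adjusted p = 0.000347). Lmnb1, which encodes lamin B1 of the nuclear lamina, had signals of 631, 766 and 1026 at 18 months, against 156, 83.9, 153, 120 and 531 at 2 months (2.11 ± 0.38, SE, adjusted p = 0.000938). For Lmnb1 the fifth 2-month array came nearest to the 18-month range. The remaining 6 were the RNA-binding protein gene Lsm12, the histone gene H2ac15, Hnrnpul2, which encodes an RNA-processing protein, the clathrin adaptor gene Clint1, Capza1 of actin capping and Lig1, the ligase that joins replicated DNA fragments. Their differences ran between 1.81 and 2.15.

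The genes that fell most included several noncoding RNAs. Eif4a2, a translation initiation helicase whose introns hold small nucleolar RNAs, had signals of 114, 163 and 197 at 18 months, against 2820, 2282, 513, 1743 and 1801 at 2 months (-3.22 ± 0.38, SE, adjusted p = 5.29e-05). Its other probe sets were at -1.31 (adjusted p = 8.97e-05) and at 0.23, not called (adjusted p = 0.474), so the fall belongs to part of the gene's probes. Snhg20, a small nucleolar RNA host gene, had signals of 95.2, 143 and 215 at 18 months, against 2320, 1618, 820, 1672 and 1317 at 2 months (-3.20 ± 0.30, SE, adjusted p = 1.27e-05). Snhg9, another such host, and Scarna10, a small Cajal body RNA, were lower by a similar margin (-2.42 ± 0.24 and -2.80 ± 0.52, SE). Ltb, which encodes lymphotoxin beta, a lymphocyte cytokine, had signals of 107, 132 and 275 at 18 months, against 1627, 1439, 814, 1346 and 558 at 2 months (-2.70 ± 0.34, SE, adjusted p = 8.41e-05). That the ages did not overlap in these genes follows from how they were picked. Tnfaip8l3, Bcas1os2, Pisd-ps3, the cytokine subunit gene Ebi3 and the progestin receptor gene Paqr5 completed the 10, with differences from -2.90 to -2.40, and the call on Paqr5 was lost with raised signals (adjusted p = 0.0522).

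**Figure D2:**
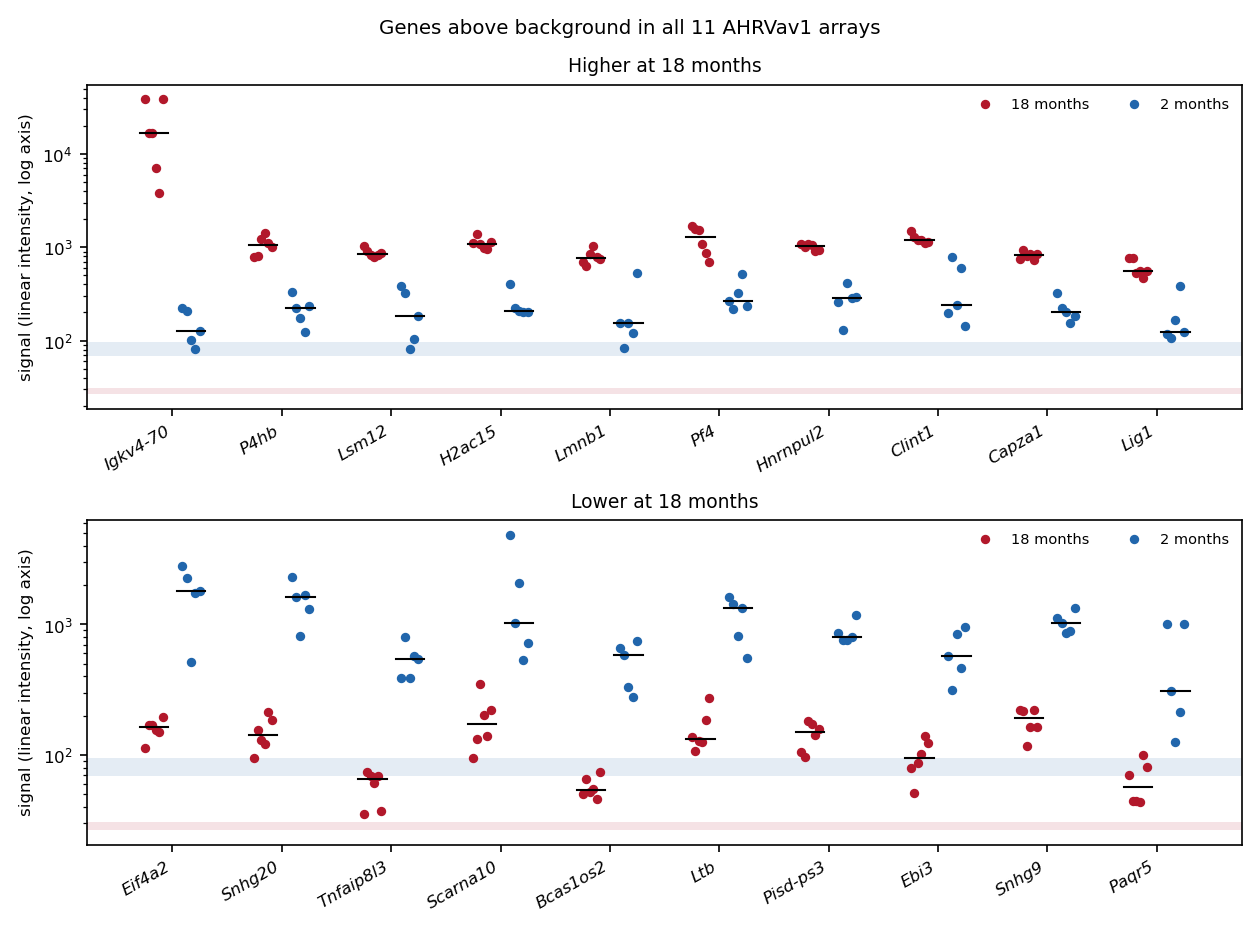
Signal of the 10 genes that rose most (top) and the 10 that fell most (bottom) among genes above background in all 11 AHRVav1 arrays with groups that did not overlap. Points are single arrays at 18 months (red, n = 6) and 2 months (blue, n = 5) on a log axis, black lines are medians, and shaded bands span the backgrounds of each age; Igkv4-70 reaches 38558 at 18 months and 221 at 2 months.

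A separate rule took genes above background in all arrays of one age and in none of the other. The 6 largest at 18 months were Ighm, Ccl9, a chemokine of myeloid cells (at least 7.51-fold higher), F13a1, a clotting factor subunit of platelets and monocytes (at least 9.45-fold), Dcaf12 (at least 4.87-fold), Plk1 and Bub1b. For Ighm this holds for the probe set given first above and not for the brightest. A second Dcaf12 probe set, above background in no array at 18 months, was not called (-0.48). At 2 months the 6 largest were Ifna2, an interferon alpha gene, the potassium channel gene Kcnj4, Sult2a5, Rdh13, Ifi214 and Spink10. Ifna2 had signals of 12.7, 13.6 and 26 at 18 months, against 404, 375, 417, 608 and 448 at 2 months, so it was at least 15.3-fold lower at 18 months. The other 5 were at least 4.72-fold to 10.4-fold lower, and a second Rdh13 probe set was not called (-0.46).

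Genes of the sort gate were used to check the cell type. Kit, the stem cell factor receptor, was above background in all 11 arrays and was not called (-0.35, adjusted p = 0.109). Cd34, which the gate as the study's text gives it was meant to exclude, had signals of 624, 1044 and 1904 at 18 months, against 1331, 1470, 1560, 721 and 1511 at 2 months, and was not called (-0.17, adjusted p = 0.653). Its RNA was above background in all 11 arrays. Slamf1, which encodes CD150, had signals of 80.1, 105 and 158 at 18 months, against 176, 2.5, 5.1, 18.3 and 208 at 2 months, and was above background in 2 of 5 arrays at 2 months. It was not called (1.11, adjusted p = 0.158). Cd48, which the gate was also meant to exclude, had signals of 87.6, 361 and 575 at 18 months, against 36.7, 179, 87.3, 81.6 and 4.4 at 2 months (1.99 ± 0.60, SE, adjusted p = 0.0169), and the ages overlapped. The call on Cd48 was lost under 4 settings, among them array weights by age (adjusted p = 0.0647) and the replicate block (adjusted p = 0.0552). Flt3, a receptor of multipotent progenitors that LT-HSCs lack, was above background in all 6 arrays at 18 months and in none at 2 months (1.45 ± 0.24, SE, adjusted p = 0.000544), though its highest 18-month signal, 116, was low. Its median 18-month signal, 59.3, lay under every 2-month background. With signals raised to the highest background the Flt3 difference was 0.04 (adjusted p = 0.878). The housekeeping genes Gapdh and Hprt were not called (0.22 and 0.34), and Birc6, which the study names from these arrays, was at -0.01, with 1.54 at its other probe set.

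Genes that mark LT-HSCs were called higher less often, and lower more often, than expressed genes. Of 33 LT-HSC identity genes, 4 (12.1%) were higher and 7 (21.2%) lower, beside 41% and 12% of expressed genes. Over all genes the shares were 23.5% and 26.6%. Of the 33, 30 were above background in all 6 arrays at 18 months. The list's median was -0.10, against 0.82 among expressed genes, and 0.09 when 1 rather than 16 was added to signals. Of the 15 above background in all 11 arrays, a filter that favors lower calls, 0 were higher, 7 lower and 8 not called. Among the 2368 comparable genes 33.7% were lower, with a median of -0.12 against -0.58 for these 15. Hoxa9, a self-renewal homeobox factor, had signals of 127, 199 and 285 at 18 months, against 261, 1807, 625, 422 and 1883 at 2 months (-1.84 ± 0.49, SE, adjusted p = 0.00859). Angpt1, which encodes the TIE2 ligand angiopoietin 1, had signals of 404, 548 and 776 at 18 months, against 929, 792, 984, 1446 and 1166 at 2 months (-0.88 ± 0.22, SE, adjusted p = 0.00598), while its second probe set, also above background in all 11 arrays, was not called (-0.48, adjusted p = 0.129). The ages overlapped slightly for Hoxa9 and not for Angpt1, and the call on Hoxa9 was lost in an unequal-variance test (adjusted p = 0.0717) and with raised signals (adjusted p = 0.0599). Lmo2, a bridging factor of the stem cell transcription complex, was also lower (-1.29 ± 0.34, SE, adjusted p = 0.00845). Hlf, a transcription factor that marks LT-HSCs, was lower by -0.77 ± 0.21 (SE, adjusted p = 0.0106) and Meis1, a Hoxa9 cofactor, by -0.71 ± 0.21 (SE, adjusted p = 0.0146). Without replicates 1 and 2 at 18 months both calls were lost (adjusted p = 0.052 for Hlf and 0.0663 for Meis1), and 3 of the 15 genes stayed lower. Over all 33 identity genes 2 were then higher and 3 lower.

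Cell division genes had the highest share of higher calls among the 39 lists. Of 28 genes of the G2 and M phases, 26 (92.9%) were higher and 0 lower, with a median difference of 2.51. All 28 were above background in all 6 arrays at 18 months, where 0 of 168 values were at background, against 92 of 140 values at 2 months. Plk1, the kinase that drives entry into mitosis, had signals of 245, 341 and 618 at 18 months, against 6.9, 17.9, 9.4, 6.9 and 9.5 at 2 months, at least 4.67-fold higher (3.89 ± 0.29, SE, adjusted p = 3.8e-06). Bub1b, a spindle checkpoint kinase, had signals of 253, 311 and 334 at 18 months, against 2.8, 1.8, 18.3, 12.4 and 0.1 at 2 months, at least 3.82-fold higher (3.83 ± 0.26, SE, adjusted p = 2.66e-06). Both were 0 of 5 above background at 2 months, so their fitted differences depend on the offset, and the bounds on the percentile that sets the background.

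Mitosis genes above background in all 11 arrays moved less and overlapped more. That filter leaves out genes with low signals at 2 months. The smaller differences and the overlap thus follow in part from how these genes were picked. Top2a, which untangles DNA before chromosomes part, had signals of 887, 1002 and 1274 at 18 months, against 500, 232, 460, 124 and 317 at 2 months (1.76 ± 0.31, SE, adjusted p = 0.000928). Ube2c, a ubiquitin-conjugating enzyme of the anaphase-promoting complex, had signals of 1478, 1886 and 2348 at 18 months, against 1085, 154, 216, 1638 and 275 at 2 months (2.02 ± 0.52, SE, adjusted p = 0.00699). The ages did not overlap for Top2a, while 2-month replicate 4 reached the 18-month range for Ube2c. Mki67, the proliferation marker Ki-67, was higher by 0.99 ± 0.30 (SE, adjusted p = 0.0166), and Ccna2, which encodes cyclin A2, was not called (1.13 ± 0.45, SE, adjusted p = 0.0531). Of the 5 mitosis genes above background in all 11 arrays, 3 were higher with a median of 1.13. Without replicates 1 and 2 at 18 months 24 of 28 mitosis genes stayed higher (median 2.36), while Mki67 lost its call (adjusted p = 0.074), and Ube2c lost its call in an unequal-variance test (adjusted p = 0.0855).

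**Figure D3:**
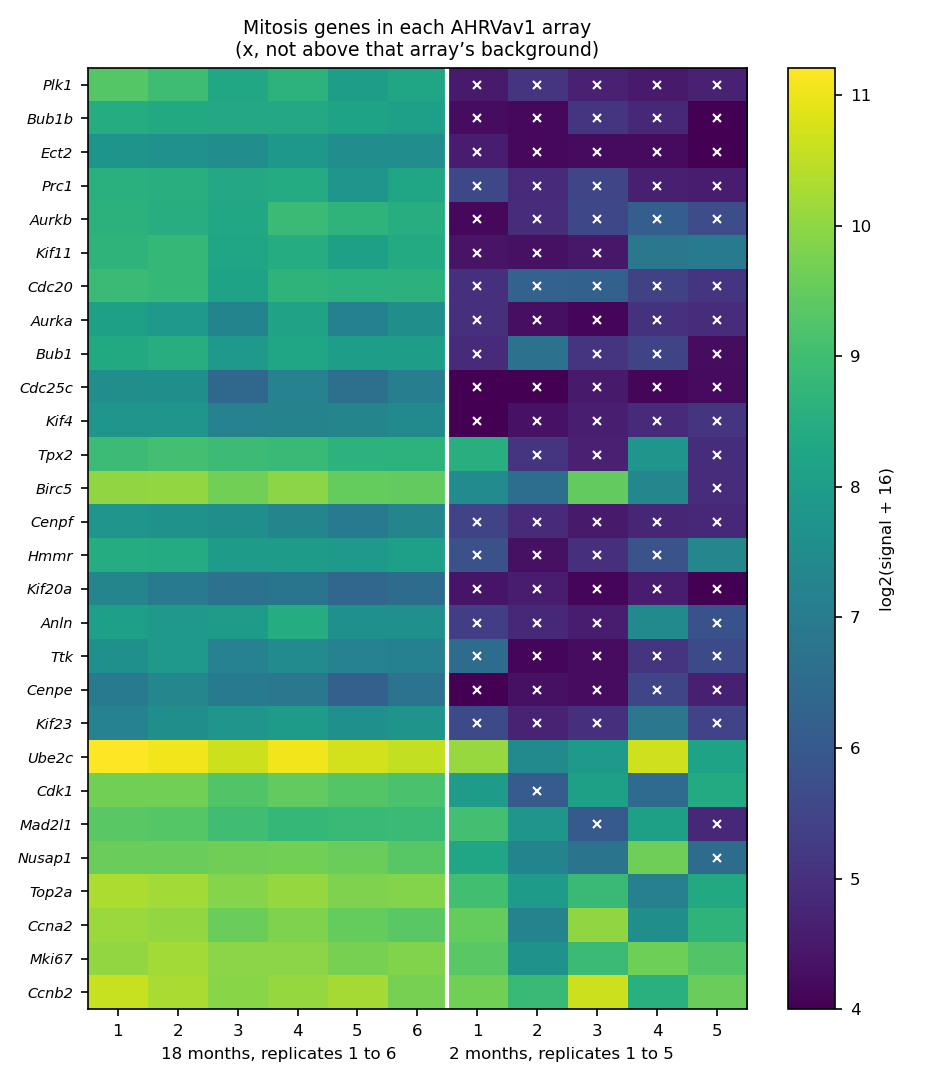
Level of 28 mitosis genes (rows, ordered by difference) in each AHRVav1 array, 18-month replicates 1 to 6 on the left and 2-month replicates 1 to 5 on the right, as log2(signal + 16). A white x marks a signal not above that array's background, which holds for 0 of 168 values at 18 months and 92 of 140 at 2 months.

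Because mitosis genes moved together, the promoter windows of 3 of those named above are shown, from 250 bases before to 50 after the RefSeq start (GRCm38.p6). Genes of the G2 and M phases are known to share a CCAAT box and a cell cycle homology region (CHR) near the start. Capitals mark CCAAT on either strand and the CHR letters TTTGAA or TTCGAA on either strand, with abutting or overlapping CCAAT matches run together. The windows lie at chr7:122159185-122159484 (Plk1, plus strand), chr2:118597961-118598260 (Bub1b, plus strand) and chr2:164769679-164769978 (Ube2c, plus strand).
Plk1: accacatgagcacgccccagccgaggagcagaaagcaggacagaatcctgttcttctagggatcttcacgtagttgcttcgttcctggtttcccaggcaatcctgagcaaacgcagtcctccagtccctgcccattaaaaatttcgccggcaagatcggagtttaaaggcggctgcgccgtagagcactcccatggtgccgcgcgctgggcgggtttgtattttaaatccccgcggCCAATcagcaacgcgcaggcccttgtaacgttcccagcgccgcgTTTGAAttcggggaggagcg
Bub1b: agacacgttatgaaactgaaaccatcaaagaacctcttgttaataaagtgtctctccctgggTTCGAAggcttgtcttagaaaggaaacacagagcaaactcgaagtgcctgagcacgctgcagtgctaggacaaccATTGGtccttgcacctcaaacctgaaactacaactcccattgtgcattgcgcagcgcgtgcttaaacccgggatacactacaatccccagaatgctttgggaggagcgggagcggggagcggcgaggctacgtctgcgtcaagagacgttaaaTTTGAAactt
Ube2c: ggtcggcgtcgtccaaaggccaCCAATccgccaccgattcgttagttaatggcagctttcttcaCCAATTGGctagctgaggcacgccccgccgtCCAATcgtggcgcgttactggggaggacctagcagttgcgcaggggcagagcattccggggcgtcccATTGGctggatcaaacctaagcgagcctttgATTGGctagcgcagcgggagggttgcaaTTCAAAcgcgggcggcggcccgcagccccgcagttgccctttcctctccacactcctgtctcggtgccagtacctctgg
In Plk1 a CCAAT begins 14 bases before the start and a TTTGAA 30 bases after it, and in Bub1b a CCAAT on the opposite strand begins 113 bases before the start and a TTTGAA 40 bases after it. Of 23 mitosis genes with a window, 19 (82.6%) held CCAAT, 19 (82.6%) a CHR and 18 (78.3%) both. Over all 27025 genes with a window the shares were 41.1%, 21.7% and 8.61%. DNA replication genes held CCAAT in 15 of 21 windows (71.4%) and both motifs in 5 (23.8%), and LT-HSC identity genes held both in 1 of 28 (3.57%). These matches describe the letters of the windows and show no binding.

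DNA replication genes followed the mitosis genes at a smaller size. Of 26 S phase genes, 21 (80.8%) were higher and 0 lower, with a median of 1.87. Rrm1, a subunit of the enzyme that makes deoxynucleotides, had signals of 859, 975 and 1468 at 18 months, against 238, 215, 182, 271 and 878 at 2 months (1.80 ± 0.36, SE, adjusted p = 0.00172). Its partner subunit Rrm2 had signals of 947, 1161 and 1348 at 18 months, against 506, 130, 456, 482 and 762 at 2 months (1.44 ± 0.35, SE, adjusted p = 0.00542). Only Rrm1 overlapped between ages, through 2-month replicate 5, and the call on Rrm2 was lost in the unequal-variance test (adjusted p = 0.0622). Mcm6, part of the replicative helicase, was higher by 0.70 ± 0.19 (SE, adjusted p = 0.0102). That call was lost without replicates 1 and 2 at 18 months (adjusted p = 0.066), when 15 of the 26 genes stayed higher.

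Genes of the Fanconi anemia pathway and homologous recombination, which repair crosslinks and broken replication forks, were low at both ages. Of 27 measured, 21 (77.8%) were higher and 0 lower (median 1.58), 0 were above background in all 11 arrays, and 15 were above it in all arrays at 18 months and none at 2 months. Fanci, which clamps DNA together with FANCD2, had signals of 67.3, 84.2 and 112 at 18 months, against 2.8, 1.6, 1.5, 0.0 and 8.5 at 2 months, at least 1.11-fold higher. Brca1, the recombination mediator, had signals of 60.3, 102 and 140 at 18 months, against 14.4, 1.7, 5.1, 8.9 and 10.8 at 2 months, at least 1.17-fold higher. The ages did not overlap for either, but the bounds leave little of the fitted differences of 2.47 and 2.19. With signals raised to the highest background 4 of the 27 genes stayed higher. Cenpx was at least 2.08-fold higher (lowest 121, median 181, highest 200 at 18 months, against 74.2, 46.3, 0.0, 51.3 and 18.4 at 2 months). Cenpx is one of several genes for which RefSeq lists the older name Stra13. That name is among those the study picked from these arrays, so its value is not independent evidence.

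Genes known from earlier work to be higher in aged HSCs were higher here in the main. Of 48 measured, 29 (60.4%) were higher and 0 lower, with a median of 1.17, against 41% and 0.82 among expressed genes. Only 4 were above background in all 11 arrays. Aldh1a1, which encodes a retinaldehyde dehydrogenase, had signals of 600, 811 and 1152 at 18 months, against 409, 271, 293, 435 and 418 at 2 months, with no overlap (1.16 ± 0.23, SE, adjusted p = 0.00165). Mt1, a metallothionein gene, was also called (1.59 ± 0.51, SE, adjusted p = 0.0219), and lost the call without 2-month replicate 3 (1.35, adjusted p = 0.0509) and without replicates 1 and 2 at 18 months (1.27, adjusted p = 0.108). Tgm2 (0.66 ± 0.34, SE, adjusted p = 0.124) and Sult1a1 (-0.39 ± 0.55, SE, adjusted p = 0.565), the other members above background in all 11 arrays, were not called. The list also holds Runx1t1 and Perp, which the study named from these arrays, so it is not independent of them.

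Of 24 quiescence genes, 13 (54.2%) were higher and 0 lower (median 1.04), beside 41%, 12% and 0.82 among expressed genes. Of the 24, 23 were above background in all 6 arrays at 18 months. With signals raised to the highest background 3 of the 24 stayed higher. The 2 that were above background in all 11 arrays, Txnip (0.14, adjusted p = 0.518) and Ndn (-0.25, adjusted p = 0.558), were not called. Nr4a2, a nuclear receptor tied to quiescence, was the member with the smallest p (lowest 33.2, median 45.9, highest 52.3 at 18 months, against 3.2, 0.0, 1.1, 0.4 and 3.5 at 2 months), and all its 18-month signals lay under the 2-month background. Chromatin regulators and sirtuins were higher for 15 (44.1%) and lower for 1 (2.94%) of 34, close to the 41% of expressed genes. Ezh2, the methyltransferase of Polycomb repressive complex 2, had signals of 428, 507 and 647 at 18 months, against 111, 81.3, 77.3, 436 and 124 at 2 months (1.86 ± 0.39, SE, adjusted p = 0.00222), with replicate 4 at 2 months inside the 18-month range.

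Erythroid genes carried the split between 18-month arrays. Of 18, 6 (33.3%) were higher and 0 lower, with a median of 1.77. Ank1, the red cell membrane anchor, was 417 and 402 in replicates 1 and 2 and at most 49.1 in the other 9 arrays, and its second probe set was not called (0.23, adjusted p = 0.558). Car1, carbonic anhydrase 1 of red cell precursors, was 4084 and 4499 in replicates 1 and 2 and had a median of 786 over all 6 arrays at 18 months, against 143, 236, 646, 118 and 28.2 at 2 months. Both were called (2.33 ± 0.63 and 2.62 ± 0.81, SE, adjusted p = 0.0097 and 0.0183). Without replicates 1 and 2 the list's median was 0.58, 2 of 18 genes stayed higher, Car1 was no longer called (1.62, adjusted p = 0.0914) and Ank1 was (1.29, adjusted p = 0.000623). The call on Ank1 over all arrays was lost in the unequal-variance test (adjusted p = 0.0535). Megakaryocyte and platelet genes, led by Pf4, had a level of 0.37 to 0.68 in all 6 arrays at 18 months, against -0.96 to -0.41 at 2 months, and 12 of 21 (57.1%) were higher and 0 lower.

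Myeloid genes rose in replicates 3 to 6 more than in replicates 1 and 2. Of 22 myeloid priming genes, 13 (59.1%) were higher and 1 (4.55%) lower (median 1.3), and without replicates 1 and 2 at 18 months 18 were higher and 0 lower (median 1.86). Mpo, the myeloperoxidase of granule precursors, had signals of 1847, 4631 and 4962 at 18 months, against 2263, 1513, 1313, 1464 and 1422 at 2 months (1.21 ± 0.27, SE, adjusted p = 0.00302), and the overlap came from replicate 1 at each age. The granule protease genes Prtn3 and Ctsg were not called over all arrays (adjusted p = 0.084 and 0.0848) and were called without replicates 1 and 2 (1.80 and 1.90, adjusted p = 0.0206 and 0.0283). Of 21 monocyte and macrophage genes 10 (47.6%) were higher and 2 (9.52%) lower, which became 8 and 7 after quantile normalization again. With signals raised to the highest background 1 of the 21 stayed higher, as did 3 of the 22 myeloid priming and 0 of the 18 erythroid genes. Csf1r, the receptor that defines the lineage, had signals of 64.5, 265 and 407 at 18 months, against 3.9, 21.5, 15.8, 2.3 and 6.0 at 2 months, at least 2.35-fold higher. Ccr2, the receptor that moves monocytes out of marrow, had signals of 414, 1597 and 2208 at 18 months, against 55.6, 33.1, 128, 73.2 and 283 at 2 months (3.45 ± 0.53, SE, adjusted p = 0.00035). In both genes replicates 1 and 2 were the lowest of the 18-month arrays. The summed signal of the 21 monocyte genes was 2464 to 8389 at 18 months and 1111 to 2645 at 2 months. In sorted cells pooled per animal, more cells of another type and more RNA of such genes per LT-HSC cannot be told apart.

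Other lineages gave mixed counts. Of 22 granulocyte genes 4 (18.2%) were higher and 1 (4.55%) lower, which became 9 and 0 without replicates 1 and 2. Lymphoid priming genes were higher for 8 (33.3%) and lower for 5 (20.8%) of 24, with Ltb the largest. T and NK cell genes were higher for 6 and lower for 6 of 23, and Cd5, a T cell surface receptor, was lower (-1.40 ± 0.28, SE, adjusted p = 0.00169). Mast cell and basophil genes were higher for 7 (46.7%) and lower for 2 (13.3%) of 15. Endothelial and stromal genes were higher for 2 (7.69%) and lower for 5 (19.2%) of 26, with 0 of the 26 above background in all 11 arrays.

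Genes of protein folding were called higher more often than expressed genes at large. Of 25 unfolded protein response genes 15 (60%) were higher and 0 lower (median 1.20), and of the 11 above background in all 11 arrays 6 were higher and 0 lower, against 17.4% and 33.7% of the 2368 comparable genes, while the other 5 were not called. Calr, a chaperone of the endoplasmic reticulum, had signals of 2268, 2619 and 3200 at 18 months, against 1098, 1012, 1564, 1161 and 726 at 2 months (1.26 ± 0.17, SE, adjusted p = 0.000139). Heat shock and chaperone genes were higher for 15 (65.2%) and lower for 1 (4.35%) of 23, and for 8 and 0 of the 11 above background in all 11 arrays. Hspa8, the constitutive HSC70 chaperone, was tight at both ages (4166, 4592 and 5013 at 18 months, against 3684, 3757, 3854, 3697 and 3708 at 2 months) and was higher by 0.30 ± 0.05 (SE, adjusted p = 0.000891). No 2-month array reached the 18-month range for Calr or Hspa8.

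Oxidative phosphorylation genes had a share of higher calls near that of expressed genes. Of 30, 14 (46.7%) were higher and 0 lower, beside 41% of expressed genes. Of the 21 above background in all 11 arrays 8 were higher and 0 lower with a median of 0.64. Among the 2368 comparable genes 17.4% were higher and 33.7% lower, with a median of -0.12. Atp5a1, the alpha subunit of ATP synthase, had signals of 1706, 2164 and 2461 at 18 months, against 1418, 786, 752, 388 and 454 at 2 months, with no overlap (1.6 ± 0.28, SE, adjusted p = 0.00073). Without replicates 1 and 2 at 18 months 4 of these 21 were higher, beside 372 of the 3121 probe sets above background in all 11 arrays. Glycolysis genes were higher for 7 (30.4%) and lower for 2 (8.7%) of 23, and Pdk1, the kinase that turns pyruvate away from mitochondria, was lower (-1 ± 0.32, SE, adjusted p = 0.0199), a call lost with the replicate block (adjusted p = 0.0522), and its second probe set was not called (1.40, adjusted p = 0.137). Cytosolic ribosomal protein genes, 23 of 27 of them above background in all 11 arrays, hardly moved (3 higher, 1 lower, median 0.08). Autophagy genes (13 higher and 0 lower of 28), antioxidant genes (12 and 1 of 24), splicing factors (11 and 0 of 28) and housekeeping genes (7 and 0 of 15) had shares of 39.3% to 50% higher, near the 41% of expressed genes.

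Stress and signalling lists ran both ways, beside 23.5% higher and 26.6% lower over all genes and 41% and 12% of expressed genes. Jund, an AP-1 subunit, had signals of 173, 188 and 261 at 18 months, against 714, 782, 506, 552 and 728 at 2 months (-1.62 ± 0.23, SE, adjusted p = 0.00022). Of the 31 AP-1 and immediate early genes 5 (16.1%) were higher and 8 (25.8%) lower. The interferon response list had 7 (21.9%) higher and 5 (15.6%) lower of 32. Of the 10 above background in all 11 arrays 0 were higher and 4 lower, near the 33.7% lower of the 2368 comparable genes, of which 17.4% were higher. Ifitm1, an interferon-induced membrane protein, had signals of 432, 574 and 706 at 18 months, against 1141, 1089, 1008, 1355 and 1276 at 2 months (-1.06 ± 0.19, SE, adjusted p = 0.000946). Neither Jund nor Ifitm1 overlapped between ages. Of 29 inflammation genes 8 (27.6%) were higher and 4 (13.8%) lower. Relb, the subunit of noncanonical NF-kB signalling, was lower (-1.37 ± 0.23, SE, adjusted p = 0.000628) and Rela, the canonical subunit, was higher (1.26 ± 0.32, SE, adjusted p = 0.00692). Cdkn2a, the locus of the senescence proteins p16 and p19, had signals of 196, 219 and 299 at 18 months, against 420, 395, 464, 456 and 530 at 2 months, and was lower by -0.95 ± 0.23 (SE, adjusted p = 0.0049). The call on Rela was lost in the unequal-variance test (adjusted p = 0.0628) and that on Cdkn2a with the replicate block (adjusted p = 0.0501).

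Niche and developmental signals were mixed. Wnt5a, a noncanonical Wnt ligand tied to HSC aging, was lower (-1.38 ± 0.24, SE, adjusted p = 0.000842; 85.7, 98.2 and 110 at 18 months, against 303, 228, 241, 387 and 286 at 2 months). Rhoa and Cdc42, small GTPases of cell shape and polarity in the same list, were higher (0.83 ± 0.16 and 0.59 ± 0.13, SE), with a second Cdc42 probe set not called (0.59, adjusted p = 0.112), and the list of 31 had 11 higher and 9 lower. Tgfb1, a cytokine that keeps HSCs quiescent, had signals of 717, 986 and 1456 at 18 months, against 442, 532, 465, 655 and 401 at 2 months (1 ± 0.21, SE, adjusted p = 0.0025). The BMP and TGF-beta list had 16 (48.5%) higher and 3 (9.09%) lower of 33, niche adhesion genes 11 (42.3%) and 2 (7.69%) of 26, p53 target and senescence genes 9 (34.6%) and 4 (15.4%) of 26, apoptosis regulators 9 (37.5%) and 2 (8.33%) of 24, antigen presentation genes 1 (5.56%) and 2 (11.1%) of 18, and Hox genes with their partners 5 (23.8%) and 6 (28.6%) of 21. Without replicates 1 and 2 at 18 months the lower counts of several lists shrank, to 3 for Wnt, 3 for Hox, 4 for AP-1, 2 for interferon, 2 for p53, 2 for B and plasma cell, 1 for glycolysis, 1 for endothelial and stromal, 0 for heat shock and 0 for chromatin genes, and of the interferon genes above background in all 11 arrays 2 stayed lower, and the higher counts became 5 for inflammation, 7 for niche adhesion, 8 for oxidative phosphorylation, 4 for housekeeping and 1 for ribosomal protein genes.

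**Figure D4:**
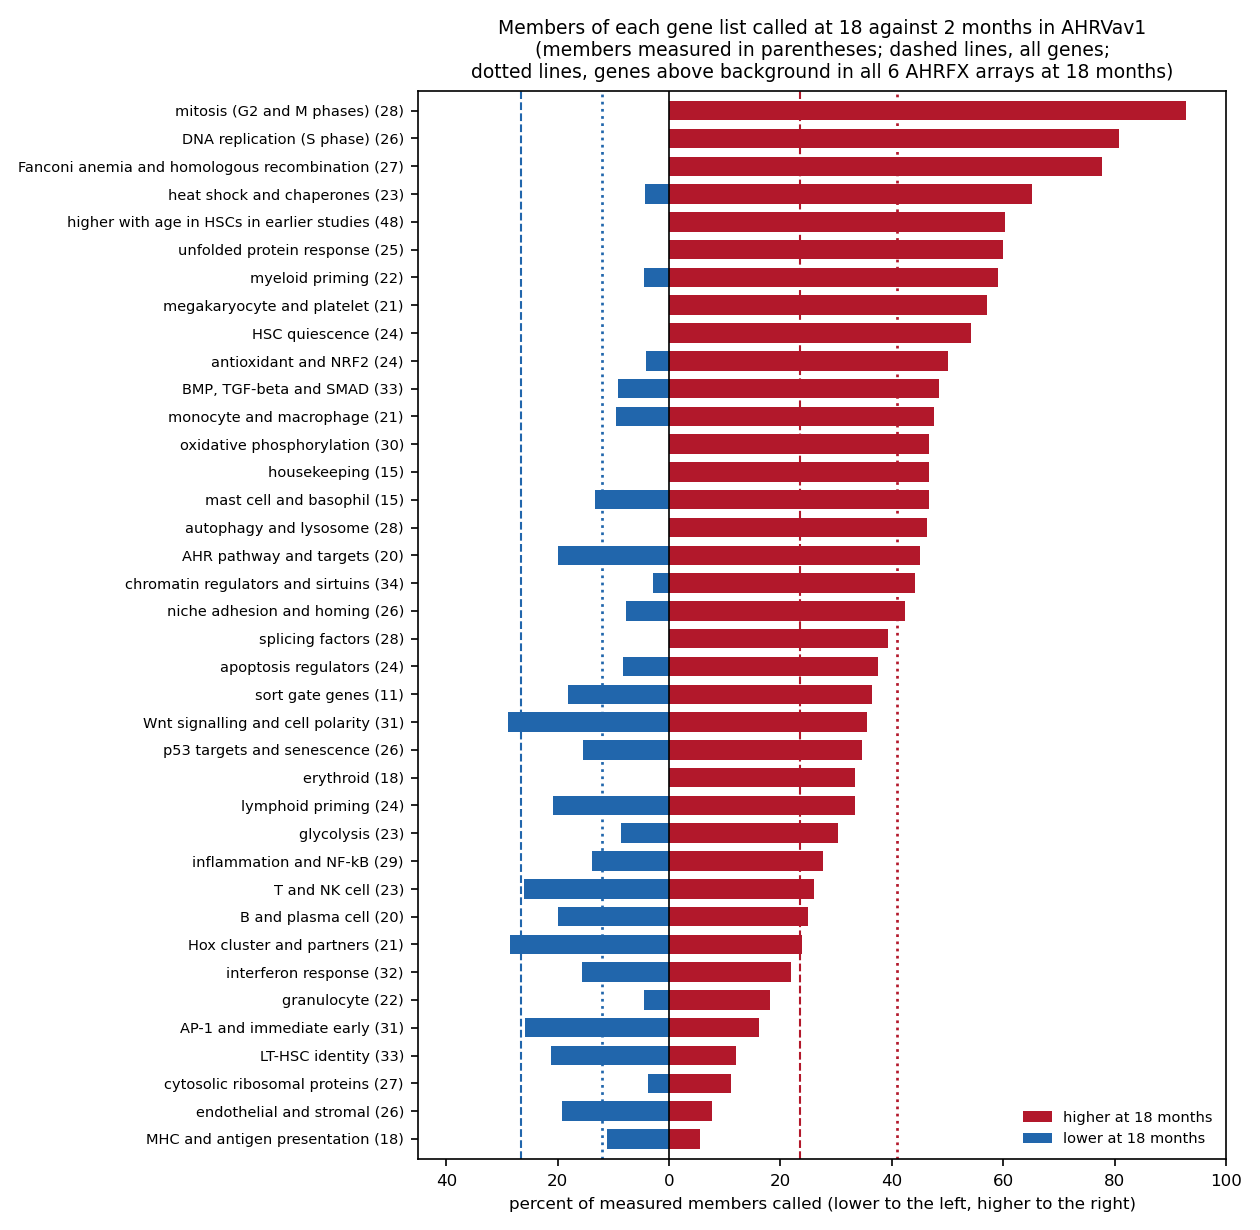
Percent of the measured members of each gene list called higher (red, to the right) and lower (blue, to the left) at 18 months in AHRVav1 LT-HSCs, with the number of members in parentheses. Dashed lines mark the shares over all genes (23.5% higher, 26.6% lower) and dotted lines those over genes above background in all 6 AHRFX arrays at 18 months (41% higher, 12% lower); mitosis, at 92.9% higher, lies at the top.

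To ask whether these differences were particular to cells without AHR, the same ages were compared in AHRFX mice, where 5379 probe sets (20.2%) were higher and 6471 (24.2%) lower at 18 months. The genotypes share no arrays. Differences of the 2 genotypes correlated at r = 0.83 across all probe sets and 0.81 across those above background in all 11 AHRVav1 arrays, a description over probe sets that share arrays within a genotype and the same difference in background between ages. Of the 578 probe sets higher in AHRVav1 cells 335 (58%) were also called higher in AHRFX cells, and of the 1014 lower 724 (71.4%) were also called lower; called in the opposite direction were 0 and 2. In AHRFX cells the mitosis list had 23 of 28 genes higher (median 1.82), the S phase list 21 of 26 (1.28), the myeloid priming list 14 of 22 (1.68) and the erythroid list 13 of 18 (1.32).

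A direct test of the difference between genotypes called 3 probe sets (0.0112%), with 2117 (7.93%) at an unadjusted p under 0.05. Ppm1h, a protein phosphatase gene, was not called in AHRVav1 cells (79.1, 151 and 211 at 18 months, against 393, 527, 98.2, 223 and 182 at 2 months, -0.71) and was higher by 2.60 in AHRFX cells, a difference of -3.31. Rassf5, a RAS effector gene, was likewise not called in AHRVav1 cells (67.6, 98 and 126 at 18 months, against 160, 59.3, 136, 75.4 and 194 at 2 months, -0.25) and was higher by 2.08 in AHRFX cells, a difference of -2.34. The remaining probe set had no gene symbol (difference 3.73). The smallest adjusted p was 0.0211, and 0 probe sets passed when 18-month replicate 1 or 2 of the AHRVav1 arrays, or 18-month replicate 3 or 4 of the AHRFX arrays, was left out, so none of the gene lists above can be called particular to the loss of AHR. Among the genes above, Paqr5 (-2.40 in AHRVav1 against 0.92 in AHRFX cells), Cenpx (1.96 against -0.59), Fanci (2.47 against 0.45), Hoxa9 (-1.84 against -0.04) and Mpo (1.21 against 2.56) differed at an unadjusted p of 1.72e-05, 0.000151, 3.81e-05, 0.0209 and 0.011, and none passed the adjustment.

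**Figure D5:**
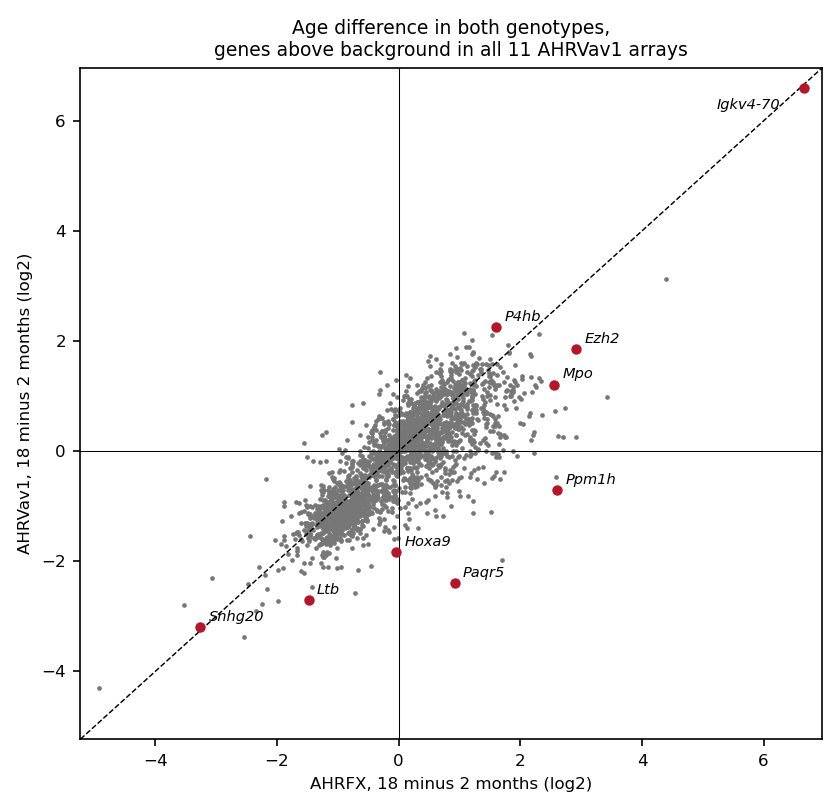
Age difference (18 minus 2 months, log2) in AHRVav1 cells against AHRFX cells for 2368 genes above background in all 11 AHRVav1 arrays. Each point is 1 gene, the dashed line marks equal differences, and named genes are in red; Igkv4-70 lies at 6.60 and 6.66, Ppm1h at -0.71 and 2.60.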

How the data were processed

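RNA of LT-HSCs from 22 mice was measured on 1 array each, and the 11 AHRVav1 arrays were compared by age. The deposited values are linear intensities that the authors computed with IterPLIER in Affymetrix Expression Console, with background subtraction and quantile normalization, so differences in RNA content between arrays are levelled. Software version and annotation filters: not given in the sources used here. Gene symbols came from the platform annotation (23321 probe sets with 1 symbol, 1802 with several, 1565 with none). RefSeq (GRCm38.p6) gave chromosomes and served to match list entries held under another name. The number of arrays, and at 2 months their signal over background, limits the precision.

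Signals were taken as log2(signal + 16), which understates changes of low genes, and compared by limma 3.58.1 under R 4.3.3 (lmFit on 2 groups with no covariate, then eBayes with the variance trended on the mean). Tests were two-sided, and Benjamini-Hochberg adjustment covered all 26688 probe sets at a threshold of 0.05. The difference between genotypes was an interaction term over all 22 arrays. The script was tested on simulated data. Where one age was above background in no array, "at least" folds set the mean log2 signal of the brighter age against the mean, over the arrays of the dimmer age, of the higher of the lowest signal above background and the probe set's own. A gene in a list was represented by its probe set of highest mean signal, and 964 of 1063 list entries matched.

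Named genes were Ahr, its partners and targets, the gate genes, the 10 largest changes in each direction among genes above background in all 11 arrays with groups that did not overlap, the 6 largest for each age among genes detected at that age only, the 4 members of each list with the smallest p, those above background in all 11 arrays first, and genes whose age difference differed between genotypes. The rule names 191 genes, all of which entered the counts of lost and gained calls, and the text gives values for a part of them, picked with values known. Genes, lists and rules were chosen with earlier results of these data known, so lists are given by counts and medians without a test. Alternatives were other offsets, filters, backgrounds and normalizations, no trend, array weights, a fit of all 4 groups, the replicate number as a block, the methods' t-test, and arrays left out. Promoter windows and their strands came from RefSeq. Each array came from a different animal, and array dates were not used here.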

Additional observations from a re-analysis of the deposited data

Results flagged for a closer look

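In 384 sets of values (each probe set of a named gene at each age), 19 held 1 array far from the others, measured by the gap to the nearest array over the group's range. Chance alone marks about 1 in 20, so this number is near what chance gives. At 18 months the highest array stood off for Dcaf12 (0.634, replicate 3 at 475), Rela (0.703, replicate 1 at 859) and Hnrnpa2b1 (0.675, replicate 2 at 2288). At 2 months it stood off for H2ac15 (0.848, replicate 1 at 408), Pisd-ps3 (0.717, replicate 5 at 1191), Plk1 (0.726, replicate 2 at 17.9, not above background), Ezh2 (0.743, replicate 4 at 436), Ikzf1 (0.716, replicate 4 at 946), Mpo (0.74, replicate 1 at 2263), Sdc1 (0.9, replicate 5 at 27.9), Prf1 (0.898, replicate 2 at 320), Hdc (0.828, replicate 5 at 37.7) and Rrm1 (0.755, replicate 5 at 878). The lowest 2-month array stood off for Cd34 (0.793, replicate 4 at 721), Eif4a2 (0.716, replicate 3 at 513), Sox4 (0.749, replicate 1 at 174), Cd8b1 (0.717, replicate 4 at 4.2), Ptges3 (0.79, replicate 2 at 270) and Eng (0.776, replicate 3 at 322).

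The age difference differed between genotypes, AHRVav1 minus AHRFX, for Rassf5 (-2.34), Ppm1h (-3.31) and a probe set with no symbol (3.73).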

How the results depend on the processing

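Counts over all probe sets (6072 higher, 6979 lower) became 1538 and 765 when signals were raised to the highest background and 3654 and 4634 in an unequal-variance test, both chosen after seeing the data, and 4254 and 2669 among the upper 50% by mean signal, where fewer probe sets were tested. Among probe sets above background in all 11 arrays the higher count of 578 became 349 with raised signals, 307 in the unequal-variance test, 372 without replicates 1 and 2 at 18 months and 326 with background at the 99th percentile, and the lower count of 1014 became 285 at the 99th and 1910 at the 90th percentile. The share of calls that were higher, 46.5% of all and 36.3% of those above background, became 36.4% and 29.4% after quantile normalization again, 38.7% and 29.8% with equal medians, 61.4% in the upper 50% by mean signal, 66.8% with raised signals, and 25.6% of those above background in the unequal-variance test. The 2 scalings moved the median of all probe sets from -0.09 to -0.20 and -0.18.

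With the replicate number as a block the counts were 4991 and 4883 over all probe sets and 380 and 722 above background, and 2 probe sets differed between genotypes. The numbers do not pair the arrays: the correlation of deviations was 0.0071 for equal and -0.00141 for different numbers on average.

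The genotype difference called 0 probe sets with an offset of 64, array weights by age or without replicates 1 and 2 at 18 months, 5 without the trend, and 0 to 13 with 1 array left out. Of 144 called probe sets of named genes, 13 lost the call with some single array left out (Cd44, Cd47, Fabp4, Ifitm3, Ikzf1, Mt1, Nfe2l2, Pcna, Pgam1, Ptges3, Rpl15, Spi1 and Xaf1) and 71 under some other setting, and 0 reversed. Of 48 not called, 23 gained a call with some array left out. Signs turned for Cd34 (0.12) and Car2 (-0.11) without replicates 1 and 2, Slamf1 (-0.17) with raised signals, Birc6 (0.05) at an offset of 1, and Sesn1 after quantile normalization again (-0.10), with equal medians (-0.07) and with the replicate block (-0.01). With 1 array left out they turned for Birc6 (-0.64 to 0.46), Sesn1 (-0.33 to 0.21), Lat (-0.36 to 0.12), Mdm4 (-0.40 to 0.05), Ndn (-0.44 to 0.02) and Sult1a1 (-0.77 to 0.17). None of these genes was called, and the cause was not tested.

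Restricting a list to its members above background in all 11 arrays leaves few genes and set the medians at -0.58 for LT-HSC identity, -0.05 quiescence, 0.91 aging, 0.71 chromatin, 0.39 megakaryocyte, 0.22 erythroid, 1.5 monocyte, -0.90 B cell, -0.79 T and NK cell, -0.48 mast cell, 0.70 S phase, 1.13 mitosis, -0.20 p53, -0.67 AP-1, -0.63 inflammation, -0.29 interferon, 0.00 antigen presentation, 0.02 ribosomal, 0.44 glycolysis, 0.59 autophagy, 0.47 antioxidant, 0.84 AHR, -0.21 BMP and TGF-beta, -1.27 Hox, 0.42 splicing, 0.70 apoptosis, -1.05 sex check and -0.17 sort gate genes.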

Other observations

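In further gene families, chosen after their values were seen and not tested, most of the calls at 18 months ran one way. Over all probe sets 22.8% were higher and 26.2% lower, and of those above background in all 11 arrays 18.5% and 32.5%. Not every family exceeded these shares. Tubulins, the subunits of microtubules, were higher for 13 and lower for 0 of 25 probe sets, and for 7 of the 7 above background in all 11 arrays (median 1). Subunits of the CCT chaperonin, which folds tubulin and actin, were higher for 7 and lower for 0 of 10 (5 and 0 of 6 above background), proteasome subunits for 21 and 1 of 41 (7 and 0 of 20), and nucleoporins for 13 and 0 of 18. Mitochondrial ribosomal proteins were higher for 24 and lower for 0 of 80. Of the 28 above background 4 were higher, under the 18.5% of all such probe sets, and 0 lower.

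Small nucleolar and Cajal body RNAs were higher for 7 and lower for 17 of 80 probe sets, both shares under those over all probe sets. Of the 13 above background 0 were higher and 10 lower (median -1.05). Their host genes of the Snhg series were higher for 0 and lower for 6 of 18. MicroRNA genes were lower for 217 and higher for 14 of 511. Keratin-associated proteins (31 of 52 lower) and defensins (31 of 55 lower), which LT-HSCs are not known to use, were called lower too, as were 44.1% of the olfactory and vomeronasal receptors, and the difference between these shares was not tested.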
